A study of Mus musculus with 86 samples.

Results

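RNA from the neurites and from the soma of wild-type N2A cells was compared, to describe which RNAs were neurite-enriched and which were held in the soma when nothing was perturbed. The samples were chosen by their labels, as those from N2A cells without doxycycline, and number 6 of the 86 samples of the series, with 3 neurite and 3 soma libraries. N2A cells are a mouse neuroblastoma line that extends neurites when serum is withdrawn. The series asks how TDP-43, an RNA-binding protein, sets RNA localization in neuronal cells. The cells of both fractions have the genotype TetOff TDP-43: their endogenous TDP-43 alleles were inactivated with CRISPR/Cas9, and HA-tagged TDP-43 came from a single-copy transgene that doxycycline turns off. "Wild-type" therefore means that this transgene was on, in a selected clone, and does not mean unmodified N2A cells. The cells grew without serum on porous membranes, soma were scraped from the upper face, and neurites were lysed from the underside. Knockout N2A cells (the same cells with doxycycline for 48 h) entered the model to share its estimate of spread. They thereby also bore on which genes were tested and on the scaling of levels. Wild-type CAD cells, a second mouse neuronal line made in the same way, served for 1 comparison. Nothing in the labels states whether same-numbered libraries came from 1 dish, so p-values measure the spread between these libraries, which may be technical.

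Neurons place chosen mRNAs in their projections, where the proteins can be made on site. Motor proteins carry some mRNAs along microtubules, bound through elements that are often in the 3′ UTR, while others are anchored there or outlive their copies in the soma. The soma also holds the nucleus, with unspliced and architectural RNAs, and most of the rough ER, on which mRNAs for secreted and membrane proteins are translated. The measure used throughout is the localization ratio (LR), the log2 of the neurite level over the soma level, so an LR of 1 is a doubling in neurites. As in any bulk sample, fewer neurites and less RNA in each cannot be told apart, and every LR is relative to the other RNAs of its fraction.

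The neurite libraries held 27243865 to 30709855 estimated counts and the soma libraries 23148984 to 25857171. Levels are given as CPM, counts scaled to a common library size with edgeR's TMM factors, and a gene was called when its LR passed a false discovery rate (FDR) of 0.01 in edgeR's quasi-likelihood test. Of 17912 genes tested, 5825 (32.5%) were higher in neurites and 4773 (26.6%) were lower, with a median LR of -0.03. Among the 13785 protein-coding genes 40.3% were higher and 22.6% lower, and counts within the lists of coding genes below are to be read against these shares. The neurite and soma levels did not overlap for 13850 genes (77.3%). The split depended on the scaling: 4254 genes were higher and 6624 lower under upper-quartile scaling, which moved the median LR by -0.30, and 3982 were higher and 6832 lower under library totals, which moved it by -0.34. LRs below are to be read against those shifts. Without the libraries numbered 2, the genes lower in neurites numbered 2561. Such fits left out the libraries of a given number from every group of the model, the knockout or CAD libraries included. Log levels of the neurite libraries correlated at 0.984 to 0.988 with each other, the soma libraries at 0.980 to 0.987, and the fractions at 0.921 to 0.960. Neuroblastoma genes were present in both fractions: Tubb3, Phox2a, Hand2, Chga and Chgb were among the 18 of 25 neuronal identity genes with a mean of at least 5 CPM, while Nefl, Nefm and Chat were under 0.1 CPM. Markers of glia, blood, vessel, fibroblast and epithelial cells summed to 47.2 to 50.1 CPM in neurite and 40.5 to 48.0 CPM in soma libraries, and of the 11 tested 2 were higher and 4 lower in neurites (median LR -0.59). Smooth muscle actin, Acta2, was the most abundant of them, at 22.3 to 26.5 CPM against 8.67 to 11.6 CPM, while the glial markers Gfap and Sox10 were at or near 0.

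Among genes with a mean of at least 5 CPM, the coding RNA with the highest LR after Lars2, which is described further on, was Trp53inp2, which encodes a regulator of autophagy. It stood at 1459, 1813 and 1397 CPM in the neurite libraries and at 162, 174 and 192 CPM in the soma libraries. Every neurite library was far above every soma library, and the LR was 3.14 ± 0.19 (SE, n = 3 and 3; adjusted p = 6.6e-09). Trp53inp2 lies at chr2:155381059-155389850 in GRCm38, on the plus strand. Hmgn5, a nucleosome-binding protein, followed at a much lower level, 11.5 to 15.3 CPM against 1.61 to 2.31 CPM (LR 2.67 ± 0.24). Cplx2, which encodes a complexin that controls SNARE-driven vesicle fusion, came next at 236, 305 and 242 CPM against 37.6, 42.2 and 44.6 CPM (LR 2.65 ± 0.19). Other coding genes with high LRs, chosen after their values were seen, included Ncl, which encodes the nucleolar protein nucleolin, with 3286, 4239 and 3154 CPM in neurites against 702, 825 and 774 CPM in soma (LR 2.21 ± 0.19). They also included S100a11, a calcium-binding protein (LR 2.27 ± 0.18), the histone chaperone Anp32b (LR 2.08 ± 0.15) and the cytochrome b5 reductase Cyb5r3 (LR 2.07 ± 0.13). For each of them the groups did not overlap.

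**Figure D1:**
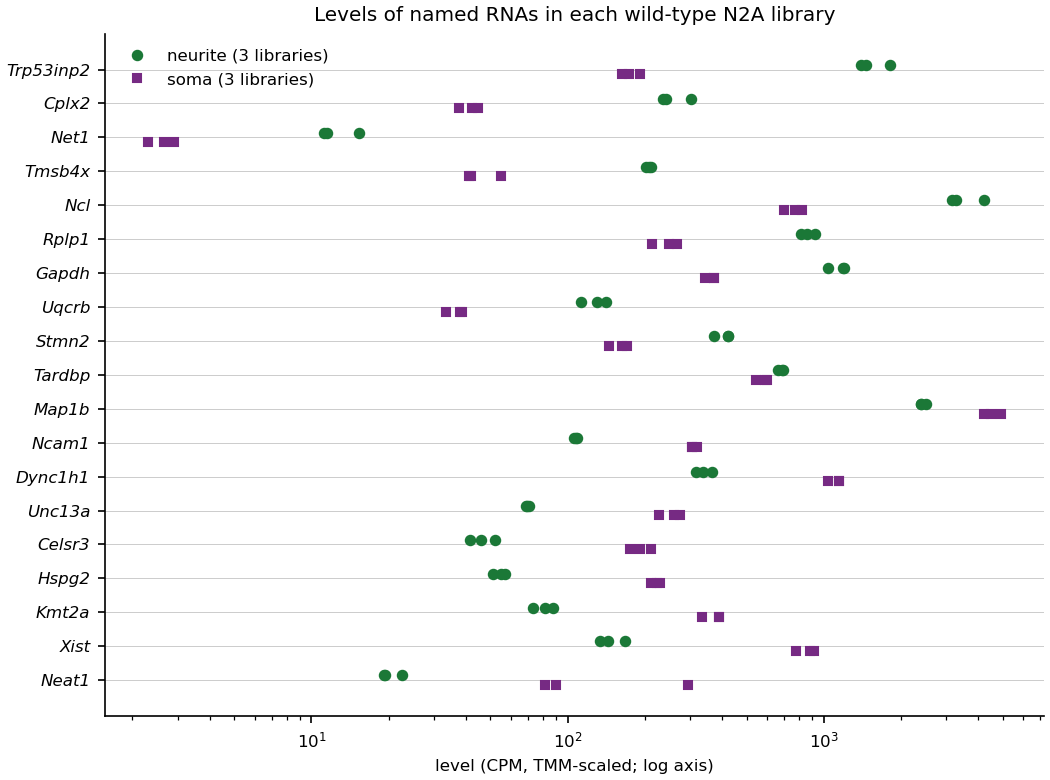
Level of 19 named RNAs in each wild-type N2A library, as TMM-scaled CPM on a log axis, with green circles for the 3 neurite libraries and purple squares for the 3 soma libraries. Trp53inp2 sits at 1397 to 1813 CPM in neurites against 162 to 192 CPM in soma, and Xist at 134 to 168 CPM against 781 to 918 CPM.

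RNAs of the translation machinery were higher in neurites almost without exception. Of 79 mRNAs for cytosolic ribosomal proteins, 78 were called higher, with a median LR of 1.38. Together they held 5.98%, 6.09% and 5.57% of the counts of the neurite libraries and 2.77%, 2.6% and 2.94% of those of the soma libraries. The 2 highest were Rplp1, of the ribosomal stalk, and Rpl23a, at the exit of the peptide tunnel. Rplp1 measured 927, 862 and 818 CPM in neurites against 249, 214 and 267 CPM in soma (LR 1.84 ± 0.10), and Rpl23a measured 1292, 1344 and 1076 CPM against 344, 370 and 373 CPM (LR 1.77 ± 0.11). The exception was Rps18, listed at only 9.23 to 12.5 CPM in neurites and 15.1 to 18.1 CPM in soma (LR -0.62 ± 0.12). Ribosomal protein genes have near-identical processed copies among which counts can be split, but the 3 pseudogenes named for Rps18 together held a mean of only 8.09 CPM in neurites and 4.82 CPM in soma, and the cause of the low Rps18 level was not tested. All 13 genes of the list named for elongation and poly(A) factors were called higher (median LR 1.24). They were led by Tpt1, a growth-related protein whose mRNA is regulated with those of ribosomal proteins, and the nucleolar chaperone Npm1. Despite its name, the list also holds genes of other kinds, among them Tpt1, Npm1, Naca, Btf3, Rack1, Nap1l1 and Hnrnpa1. Tpt1 stood at 1747, 1838 and 1682 CPM against 403, 425 and 475 CPM (LR 2.02 ± 0.10). Initiation factors were more mixed, with 47 of 54 higher and 6 lower (median LR 1.05). Eif3m and Eif2s2, subunits of eIF3 and eIF2, had LRs of 1.61 ± 0.09 and 1.6 ± 0.10. On the other side stood Eif2ak3 (LR -1.11 ± 0.09), which encodes the ER membrane kinase PERK and so is named like a factor without being one, and the large scaffold Eif4g3 (LR -0.81 ± 0.08). Host genes of small nucleolar RNAs, whose spliced RNAs are exported, counted 9 higher and 3 lower of 16 (median LR 0.85): Snhg12 had an LR of 1.15 ± 0.09, while Snhg17 had one of -0.79 ± 0.09, and Snhg11 and Snhg14 were also lower. The call for Snhg14 was lost in several of the fits that left out libraries.

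Many mRNAs of the translation machinery begin with a run of pyrimidines at the transcription start, the 5′ terminal oligopyrimidine (TOP) motif, which couples their translation to growth signals. The 30 bases around each start, 10 before it and 20 from it on, were read from RefSeq promoters (GRCm38.p6), and the longest run of C or T on the gene's strand is in capitals. The first 5 belong to translation genes with high LRs that hold a run of at least 6 bases in this window. In Rpl13a the run begins after the start base. The last 4 belong to genes without a run of that length, of which 2 had a high and 2 a low LR.
Rpl35 (chr2:39005112-39005141, minus strand): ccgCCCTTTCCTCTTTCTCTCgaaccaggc
Rps27 (chr3:90213629-90213658, minus strand): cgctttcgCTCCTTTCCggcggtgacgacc
Rps24 (chr14:24490668-24490697, plus strand): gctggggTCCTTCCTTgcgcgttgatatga
Rpl13a (chr7:45128726-45128755, minus strand): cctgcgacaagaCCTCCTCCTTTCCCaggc
Eef1a1 (chr9:78481705-78481734, minus strand): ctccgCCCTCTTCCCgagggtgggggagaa
Ndufs7 (chr10:80249439-80249468, plus strand): gacggaccgcagaggttgTCTgaaggccga
Lsm3 (chr6:91516025-91516054, plus strand): cgcgagaggtggaaagggcgcagcgTTTga
Celsr3 (chr9:108826035-108826064, plus strand): ggagcaaaCCatcggagcggccgggagcca
Spen (chr4:141538578-141538607, minus strand): ggtgggaagcgTCCggcagccacagcgccg
The LRs of these genes, in the same order, were 1.76, 1.74, 1.70, 1.56, 1.41, 1.47, 1.81, -2.05 and -2.16. A run of at least 6 bases, at the start or elsewhere in the window, was found in 36 of 58 ribosomal protein genes with a promoter in the table (62.1%). It was found in 5 of 9 genes of the list named for elongation and poly(A) factors (55.6%) and in 8 of 14 snoRNA host genes (57.1%). Only 12 of 42 initiation factors held one (28.6%). Over all 10720 tested coding genes with a promoter the share was 32.0%, and over all 32851 promoters of the table it was 28.7%. The share hardly differed between coding genes higher in neurites (31.6% of 4464) and lower in neurites (32.3% of 2370), and it was 24.2% of 33 genes of complex I, whose RNAs were all higher. Across coding genes, the median LR lay between 0.11 and 0.29 for every run length from at most 3 to at least 12 bases. A match says only that these letters lie in this window.

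Nuclear-encoded mitochondrial mRNAs were higher in neurites as a group, while none of those encoded by mitochondrial DNA was called. All 37 tested subunits and assembly genes of complex I, which takes electrons from NADH, were called higher (median LR 1.21), as were all 25 of complexes II to IV (1.24), all 16 of the ATP synthase (1.26) and all 22 of the import machinery (1.13). Mitochondrial ribosomal proteins counted 77 of 78 higher (median LR 1.12). Only Mrpl23 among them was not called, at 5.62 to 7.15 CPM against 6.65 to 8.35 CPM. Uqcrb, of complex III, stood at 130, 141 and 113 CPM in neurites and at 33.5, 37.9 and 38.8 CPM in soma (LR 1.8 ± 0.11). Cox7a2l, which joins respiratory complexes into supercomplexes, had an LR of 1.66 ± 0.09, Ndufs7 of complex I one of 1.47 ± 0.09, and the small translocase subunit Timm10 one of 1.74 ± 0.10. The 13 mRNAs made inside mitochondria had a median LR of 0.37, and none was called in either direction. That median was 0.08 under upper-quartile scaling and 0.04 under library totals. They held 3.59%, 6.33% and 5.76% of neurite counts and 3.85%, 5.88% and 5.19% of soma counts. The libraries numbered 1 were thus lowest in both fractions. The model did not pair libraries by number, so a swing shared by both fractions adds to its spread. Between same-numbered libraries, the median difference of these mRNAs varied with an SD of only 0.042. The lack of calls is therefore no sign of equal levels. Nor does that SD show a difference, as the numbers were not taken as pairs and the median depended on the scaling. The median LR of these mRNAs was 0.61 without neurite replicate 1, 0.22 without neurite replicate 2 and 0.21 without soma replicate 1. The carriers of the inner membrane, the Slc25 family, were split, with 24 of 39 higher and 4 lower (median LR 0.58). Slc25a5, the ADP/ATP carrier, had an LR of 1.30 ± 0.10, and Slc25a27, an uncoupling protein, one of -1.13 ± 0.15.

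Other lists, of cytosolic and nuclear proteins, also had most of their tested members higher in neurites, except the replication-dependent histones. The list of Sm and LSm proteins, which form the core of spliceosomal RNPs and a decapping complex, had the highest median LR of the 39 lists (1.54), with all 18 called higher; Lsm3 stood at 26.0, 26.6 and 20.3 CPM against 5.70, 7.42 and 7.61 CPM (LR 1.81 ± 0.13). The chaperonin and prefoldin, which fold actin and tubulin, had all 12 members higher (median LR 1.31). The proteasome had 37 of 38 higher (median LR 1.26), with Psmb1 and Psmb7 of its catalytic core at LRs of 1.55 ± 0.10 and 1.52 ± 0.09. Its 1 lower member was Psmb11, a thymus-specific subunit at no more than 2.72 CPM. Glycolysis counted 13 of 16 higher (median LR 0.93): Gapdh measured 1186, 1200 and 1038 CPM against 345, 373 and 372 CPM (LR 1.65 ± 0.12), while Hk2, a hexokinase at its entry, was the 1 lower member (LR -0.23 ± 0.07), a call lost in most of the fits that left out libraries. SR and hnRNP proteins, the larger splicing regulators, had 21 of 30 higher and none lower (median LR 0.52). Genes of proliferation had 16 of 20 higher (median LR 0.82), from Ube2c (1.72 ± 0.15) and Pcna (1.64 ± 0.10) to Mki67, the 1 lower member (-0.49 ± 0.11). The call of Mki67 was lost without neurite replicate 3, without soma replicate 2 and without the libraries numbered 2. Replication-dependent histones, whose mRNAs lack poly(A) tails, were mostly too low to test: 22 of 65 were tested and 6 were higher.

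**Figure D2:**
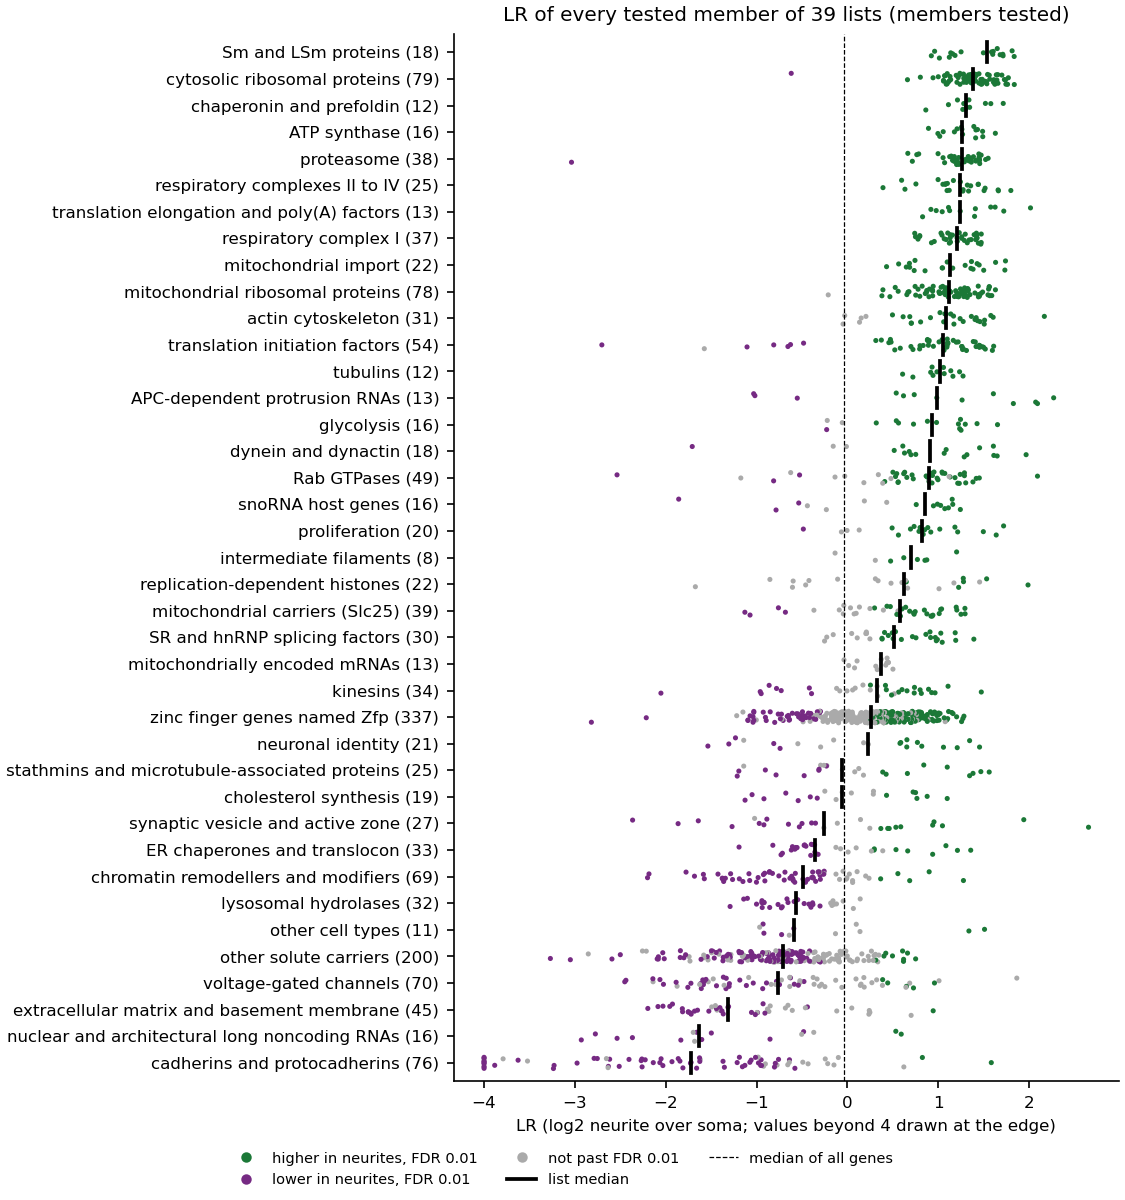
LR of every tested member of the 39 lists, ordered by the list median (black bar), with green for members higher and purple for members lower in neurites at an FDR of 0.01 and grey for the rest; the dashed line is the median of all genes, -0.03. List medians run from 1.54 for Sm and LSm proteins to -1.72 for cadherins and protocadherins.

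Cytoskeletal mRNAs differed by the kind of protein. All 12 tested tubulins were higher in neurites (median LR 1.02), and Tuba1b measured 1058, 1019 and 919 CPM against 399, 404 and 437 CPM (LR 1.27 ± 0.09). Actin-regulating genes had 26 of 31 higher and none lower (median LR 1.09). Tmsb4x, the thymosin that holds actin monomers, stood at 207, 203 and 212 CPM against 41.3, 42.0 and 55.1 CPM (LR 2.17 ± 0.10), and Cdc42, the GTPase that starts filopodia, at 569, 551 and 591 CPM against 190, 217 and 263 CPM (LR 1.35 ± 0.10). Subunits of the WAVE complex, which activates branched actin, made up all 5 members that were not called: Wasf2, Wasf3, Cyfip1, Cyfip2 and Abi2. Intermediate filaments had 6 of 8 higher (median LR 0.70), with vimentin (Vim) at 1.20 ± 0.11 and peripherin (Prph) at 0.87 ± 0.11. The list of stathmins and microtubule-associated proteins was divided, with 9 higher and 8 lower of 25 (median LR -0.06). Its small members Stmn1 and Stmn3, which bind free tubulin, had LRs of 1.56 ± 0.10 and 1.47 ± 0.11. Its large members Map1a and Map1b, which line microtubules, had LRs of -1.20 ± 0.14 and -0.90 ± 0.09, and Map1b stood at 2503, 2389 and 2398 CPM in neurites against 4477, 4924 and 4235 CPM in soma.

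Motors showed the same spread. In the dynein and dynactin list, 15 of 18 were higher (median LR 0.91), and the light chains Dynlrb1 and Dynll1 had LRs of 1.97 ± 0.10 and 1.65 ± 0.09. The heavy chain that holds the motor domain, Dync1h1, was the 1 lower member, at 365, 316 and 337 CPM in neurites against 1148, 1143 and 1037 CPM in soma (LR -1.71 ± 0.13). Kinesins had 16 of 34 higher and 8 lower, against 40.3% and 22.6% of all coding genes (median LR 0.33, or -0.01 under library totals). Kif5b, the conventional kinesin heavy chain, measured 343, 424 and 399 CPM against 131, 145 and 145 CPM (LR 1.47 ± 0.15), while Kif1b, a carrier of synaptic vesicle precursors, had an LR of -0.95 ± 0.09. Rab GTPases, which direct vesicles, counted 36 of 49 higher and 3 lower (median LR 0.90). Rab13 belongs both there and to a list of RNAs that other work places in protrusions through the APC protein. That list had 10 of 13 higher and 3 lower (median LR 0.98). Its leading member Net1, an exchange factor for RhoA, was scarce but well separated, at 11.5, 15.3 and 11.2 CPM against 2.29, 2.65 and 2.91 CPM (LR 2.27 ± 0.19), and Rab13 was at 9.90, 15.5 and 10.1 CPM against 1.86, 3.35 and 3.11 CPM (LR 2.09 ± 0.25). In both RNAs neurite replicate 2 was the highest library. The 3 lower members were Cbl (LR -1.03 ± 0.07), P4ha2 (-1.02 ± 0.08) and the receptor Ddr2 (-0.55 ± 0.09).

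Neuronal genes did not move as 1 group. Of 21 neuronal identity genes tested, 10 were higher and 5 lower, against 40.3% and 22.6% of all coding genes. Their median LR was 0.23, or -0.07 under upper-quartile scaling and -0.11 under library totals. Gap43, a growth cone protein, measured 209, 202 and 194 CPM in neurites against 65.2, 73.6 and 82.0 CPM in soma (LR 1.45 ± 0.10), and Stmn2 measured 421, 423 and 374 CPM against 145, 163 and 171 CPM (LR 1.35 ± 0.10). The 5 lower members all encode proteins that enter the ER: the adhesion molecule Ncam1, the receptor Ret, the esterase Ache and the granins Chga and Chgb. Ncam1 was at 106, 107 and 109 CPM against 320, 306 and 307 CPM (LR -1.54 ± 0.08). The synaptic list gave 10 higher and 12 lower of 27 (median LR -0.26). Next to Cplx2, its high end held Sncg, a small synuclein (LR 1.94 ± 0.10). At its low end were Unc13a, which primes vesicles, at 69.7, 70.4 and 69.0 CPM against 274, 259 and 228 CPM (LR -1.86 ± 0.13), and the giant scaffold bassoon, Bsn (LR -1.64 ± 0.11). Voltage-gated channels counted 5 higher and 31 lower of 70 (median LR -0.76). The 5 higher ones were Kcnmb4, Kcnip3, Kcnab1, Cacnb3 and Cacng7, none of which forms a pore, and the lowest named were the calcium channel subunits Cacna1b (LR -1.89 ± 0.12) and Cacna1i (LR -1.76 ± 0.11), which do.

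Genes for secreted, lysosomal and plasma membrane proteins were mostly lower in neurites. Cadherins and protocadherins, the adhesion receptors, had the lowest median LR of the lists (-1.72), with 54 of 76 lower and 2 higher. Celsr3, an atypical cadherin that guides axons, stood at 45.9, 41.6 and 52.0 CPM in neurites against 211, 192 and 175 CPM in soma (LR -2.05 ± 0.16), and its relative Celsr2 had an LR of -2.06 ± 0.15. The 2 higher members were Cdh15, at no more than 5.07 CPM, and Pcdhgc4, whose exons beyond the first are shared within its cluster, and whose call was lost in most of the fits that left out a library. Matrix and basement membrane genes counted 27 lower and 1 higher of 45 (median LR -1.32). Hspg2, the perlecan core protein, was at 54.9, 51.0 and 57.1 CPM against 230, 223 and 212 CPM (LR -2.03 ± 0.15), and collagen VII (Col7a1) had an LR of -2.20 ± 0.16. Of 200 solute carriers outside the mitochondrial family, 110 were lower and 9 higher (median LR -0.71). Slc12a5, the neuronal chloride exporter KCC2, measured 5.33, 4.89 and 6.64 CPM against 22.8, 18.3 and 19.3 CPM (LR -1.84 ± 0.12). Lysosomal hydrolases had 24 of 32 lower and none higher (median LR -0.57), with Sgsh at -1.29 ± 0.12 and Gaa at -1.14 ± 0.12. The list of ER chaperones and translocon genes had 19 of 33 lower and 8 higher (median LR -0.36): the ER chaperone Hyou1 had an LR of -1.19 ± 0.14, while the small translocon subunits Sec61b and Sec61g had LRs of 1.36 ± 0.10 and 1.21 ± 0.12. Cholesterol synthesis was divided, with 6 higher and 7 lower of 19 (median LR -0.06): Idi1 and Fdft1 had LRs of 1.10 ± 0.14 and 0.88 ± 0.09.

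A hydrophobic stretch, computed without any list, tracked this pattern. The most abundant coding transcript of each gene was translated, and a protein was said to have such a stretch when the mean Kyte-Doolittle hydropathy over some 19 residues in a row reached 1.6, as in a signal peptide or membrane span. Of 4815 coding genes with a stretch, 881 (18.3%) were higher in neurites and 1858 (38.6%) lower, with a median LR of -0.37. Of 8932 without one, 4674 (52.3%) were higher and 1254 (14%) lower, with a median LR of 0.46. Coding length varied alongside LR too. With coding genes put in 5 groups of nearly equal size by coding length, the median LR was 0.86 in the shortest group (up to 681 bases) and -0.38 in the longest (from 2388 bases). The difference between genes with and without a stretch was present within each group: the medians were 0.26 against 1.01 in the shortest group, -0.31 against 0.79, -0.31 against 0.53 and -0.44 against 0.27 in the next 3, and -0.73 against -0.19 in the longest. Across 13747 coding genes Spearman's rho with LR was -0.46 for transcript length, -0.42 for the highest hydropathy, -0.41 for coding length, -0.25 for 3′ UTR length, -0.10 for 5′ UTR length, -0.03 for GC content and 0.28 for the mean level. These are descriptions across genes of the same libraries, genes are not independent replicates, and the threshold was chosen with results of these data known.

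**Figure D3:**
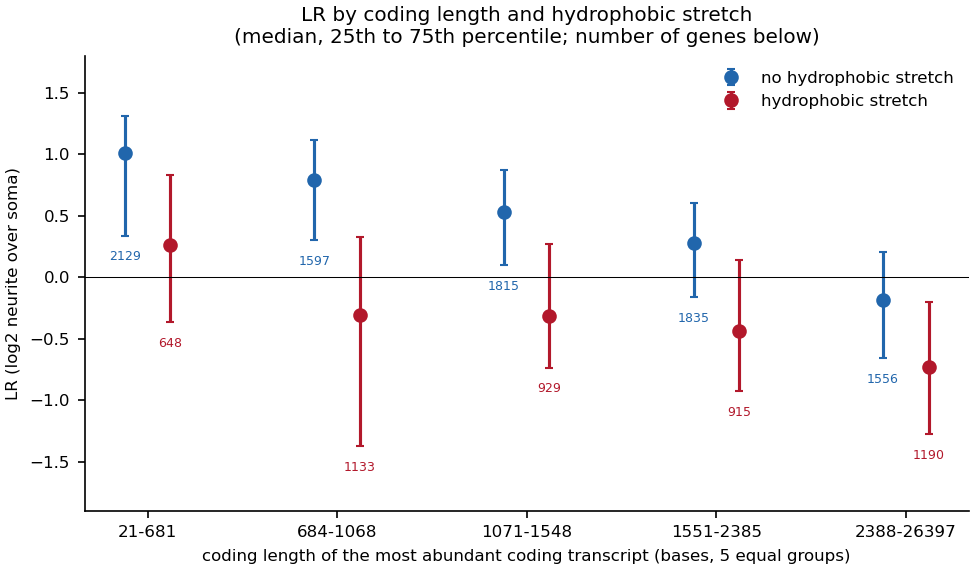
LR of coding genes by coding length (5 groups of nearly equal size, in bases) for proteins with (red) and without (blue) a hydrophobic stretch; points are medians, bars run from the 25th to the 75th percentile, and the number of genes stands below each bar. Genes with a stretch lie lower in every group, from 0.26 against 1.01 in the shortest to -0.73 against -0.19 in the longest.

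Several lists that were otherwise mixed were divided in the same way. Among neuronal identity genes the 7 with a stretch had a median LR of -0.81 and the other 14 one of 0.65. In the synaptic list the medians were -0.65 for 11 genes with a stretch and 0.41 for the rest, in cholesterol synthesis -0.25 for 13 and 0.74 for the rest, and among channel genes -0.89 for 61 and 0.27 for the other 9. Other lists did not show it. Among Zfp genes, 16 with a stretch had a median LR of 0.24 and the rest 0.26, and among lysosomal hydrolases 26 with one had -0.54 and the rest -0.57. In complex I the 8 genes with a stretch had a median LR of 1.26 and the rest 1.21, in complexes II to IV the values were 1.20 for 10 genes and 1.24 for the rest, in the ATP synthase 1.26 for 5 and 1.27 for the rest, and in the Slc25 family 0.71 for 24 and 0.44 for the rest. Genes of chromatin had 51 of 69 lower and 5 higher (median LR -0.49) although only 15 had a stretch; their median coding length was 4860 bases. Kmt2a and Kmt2d, which methylate histone H3, had LRs of -2.20 ± 0.13 and -2.18 ± 0.17, and Kmt2a measured 81.6, 73.4 and 87.7 CPM against 391, 390 and 335 CPM. Its 5 higher members were Smarca2 (LR 1.28 ± 0.11), Setd3, Smarca5, Kdm1a and Baz1a. Zinc finger genes named Zfp had 119 of 337 higher and 43 lower, against 40.3% and 22.6% of all coding genes. Their median LR of 0.26 was -0.04 under upper-quartile scaling and -0.08 under library totals.

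RNAs that stay in the nucleus were lower in neurites. Of 16 tested nuclear and architectural long noncoding RNAs, 10 were lower and 2 higher (median LR -1.63). Neat1, the scaffold of paraspeckles, was at 19.2, 19.3 and 22.6 CPM in neurites and at 295, 90.3 and 81.4 CPM in soma (LR -2.93 ± 0.50), with soma replicate 1 far above the others. Xist, which coats the inactive X chromosome, was at 134, 144 and 168 CPM against 887, 918 and 781 CPM (LR -2.54 ± 0.17). The 2 higher members were 2900097C17Rik (LR 0.53 ± 0.09) and Pvt1 (LR 0.59 ± 0.11), and both calls were lost without the libraries numbered 2. The whole list summed to 1081 to 1310 CPM in neurite and 2350 to 4587 CPM in soma libraries. Among genes with a mean of at least 5 CPM and fractions that did not overlap, most of the 12 lowest LRs belonged to noncoding RNA: 9 were noncoding genes or pseudogenes, led by Gm48765 (antisense, LR -3.70 ± 0.54) and Gm5315 (a processed pseudogene, LR -3.18 ± 0.40), and 3 were coding genes, the odorant receptor Olfr1328 (LR -3.57 ± 0.51), Tmem72 (LR -3.30 ± 0.44) and the kinase Nrk (LR -2.91 ± 0.33). That the soma libraries lay above the neurite libraries in all 12 was fixed by this choice. In all but Nrk soma replicate 1 was the highest.

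By gene type, 13785 protein-coding genes had a median LR of 0.20, with 40.3% higher and 22.6% lower. Medians were -1.14 for 978 lincRNA genes, -0.92 for 504 antisense genes, -0.42 for 478 processed pseudogenes, -2.15 for 127 sense intronic genes and -2.04 for 1224 TEC models, which are transcribed regions awaiting experimental proof. Of the TEC models 4 were higher and 702 lower, and 686 of them lay wholly within an intron of a coding gene on the same strand. Those 686 had a median LR of -2.32, and the 503 TEC models outside coding genes on their strand had one of -1.63. Reads from an unspliced host transcript and from such a model cannot be told apart. Transcripts annotated with a retained intron held 1.89%, 2.06% and 2.06% of neurite counts and 5.09%, 4.40% and 4.06% of soma counts, and TEC models held 2.90%, 2.65% and 2.56% against 4.78%, 4.82% and 4.34%. In both of these shares every soma library was above every neurite library, and in retained introns soma replicate 1 was the highest. The share of lincRNA transcripts was not lower in neurites. It was 4.80%, 2.74% and 2.72% there against 4.09%, 2.06% and 1.73% in soma. The gene Gm42418 alone held 4.09%, 2.01% and 2.03% of neurite counts and 2.23%, 0.537% and 0.425% of soma counts.

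**Figure D4:**
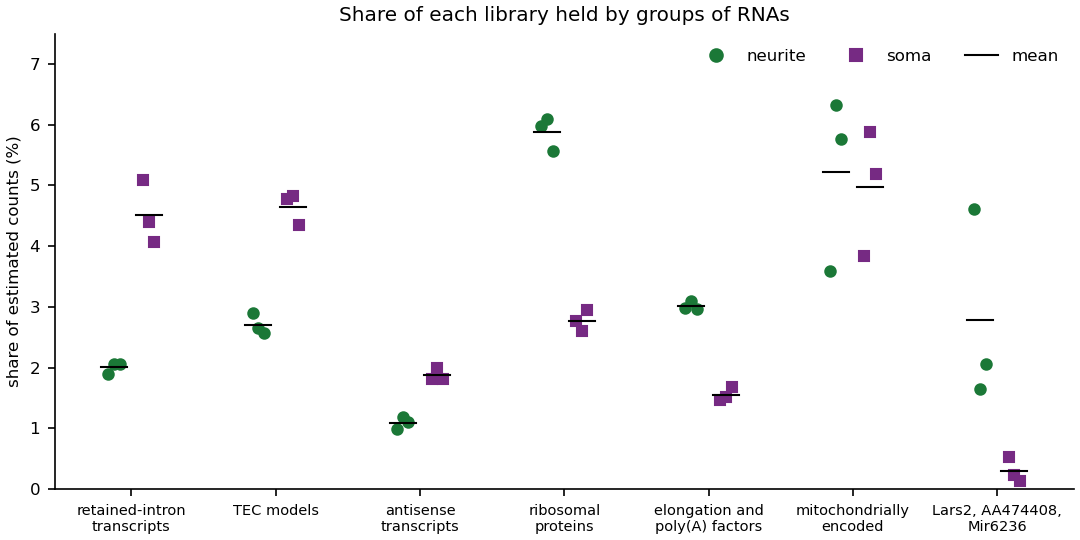
Share of each library's estimated counts, in percent, held by 7 groups of RNAs, with green circles for neurite and purple squares for soma libraries and a bar at the mean of 3. Retained-intron transcripts hold 4.06% to 5.09% in soma against 1.89% to 2.06% in neurites, ribosomal proteins 5.57% to 6.09% in neurites against 2.6% to 2.94% in soma, and mitochondrially encoded mRNAs overlap.

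The estimates per transcript gave the same view within genes. Of 49496 transcripts tested, 8552 (17.3%) were higher in neurites and 6051 (12.2%) lower. Scaling reversed this split here too, with 6487 higher and 9098 lower under upper-quartile scaling, and leaving out the libraries numbered 1, 2 or 3 left 2079, 767 and 2327 lower. Retained-intron transcripts had a median LR of -1.52 over 11310 tested, protein-coding ones 0.40 over 26499 and nonsense-mediated decay ones -0.24 over 2891. Of 1659 genes with at least 2 called transcripts of 5 CPM or more, 445 (26.8%) had called transcripts on opposite sides, and in 282 of these (63.4%) the lowest was a retained-intron form. The widest gaps involved transcripts listed at 0 in every library of 1 fraction, which can be a failed split between near-identical forms, so no fold is given. Ubp1-201 was listed at 39.1, 39.4 and 26.0 CPM in neurites, Nfe2l1-212 at 46.5, 36.3 and 52.8 CPM, Epb41-208 at 17, 15.8 and 12.5 CPM and Papola-211 at 14.3, 13.9 and 15.4 CPM, all at 0 in soma. Ccdc136-207 and Smc6-205 were listed at 15.7 to 29.4 CPM and 4.27 to 16.9 CPM in soma and at 0 in neurites. Each of these 6 genes also had a called transcript with the opposite sign and every library above 0. Without the libraries numbered 2, the calls of Ubp1-201, Ccdc136-207 and Smc6-205 were lost, and so were those of the opposite transcripts Ubp1-207, Nfe2l1-201, Ccdc136-202, Epb41-201, Papola-212 and Smc6-201. Other pairs, chosen after their values were seen, were above 0 in every library. In Enah, an actin elongation factor, coding Enah-203 measured 68.2, 59.5 and 53.7 CPM in neurites against 8.59, 8.79 and 17 CPM in soma (LR 2.40 ± 0.27), while the retained-intron form Enah-208 measured 1.69, 1.81 and 2.88 CPM against 9.75, 10.3 and 8.96 CPM (LR -2.19 ± 0.32). In Eef1d, a subunit of the elongation factor complex, coding Eef1d-201 had an LR of 3.51 ± 0.43 and retained-intron Eef1d-202 one of -2.43 ± 0.26. Both transcripts of Cdc42, which end in different last exons, were higher in neurites, Cdc42-202 by an LR of 1.61 ± 0.12 and the rarer Cdc42-201 by 1.02 ± 0.17, though the call of Cdc42-201 was lost without the libraries numbered 2 and without those numbered 3.

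Of genes with a mean of at least 5 CPM, the highest LRs belonged to models that share sequence or carry reads of uncertain origin. Lars2, a mitochondrial leucyl-tRNA synthetase, had an LR of 3.59 ± 0.57, with 26921, 8877 and 10538 CPM in neurites against 2257, 1015 and 574 CPM in soma. Between 87.7% and 97.2% of its counts per library fell on 1 transcript, Lars2-209, while the full-length form Lars2-201 had 887, 1269 and 1316 counts in neurites and 1177, 1133 and 1402 in soma. Lars2-209 shares 44 25-base words with AA474408, a TEC model with an LR of 3.58 ± 0.54. Mir6236 (LR 3.6 ± 0.55) and Gm23935, Gm24245 and Gm24270, which are identical 57-base models with LRs of 3.57, 3.57 and 3.56, varied with them: in all of these neurite replicate 1 and soma replicate 1 were the highest of their fraction. Lars2, AA474408 and Mir6236 held 4.62%, 1.65% and 2.06% of neurite counts and 0.528%, 0.233% and 0.131% of soma counts. The short models have a far larger part in TPM, which divides by length: Mir6236 and the 3 identical models took 70.9%, 44.1% and 51.0% of the TPM of the neurite libraries and 21.9%, 11.4% and 5.77% of that of the soma libraries. On the TPM scale the median log2 ratio of neurite over soma was -1.65 over 17871 genes, and 2.19% of genes were above 0. Without those 4 models it was -0.69, still below the -0.03 of the scaled counts, and the cause of the rest was not tested. The other pseudogenes among the 12 highest of at least 5 CPM were Gm12895 and Mrip-ps, whose LR of 2.83 became 4.25 without soma replicate 2, and Gm13370, which has the same sequence as Gm10240.

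The same fractions of wild-type CAD cells gave a second measure of LR in other libraries. In 18668 genes tested for a difference in LR between the lines, 2794 (15.0%) were higher in N2A cells and 1075 (5.76%) were lower. These counts were not stable: 1208 were higher and 1884 lower under upper-quartile scaling, 6072 and 420 under library totals, 1152 and 545 without the libraries numbered 1, and 22 and 167 without those numbered 2. Across genes, Spearman's rho of the LRs of both lines was 0.82, and 82.7% of genes had the same sign, as a description of 2 sets of libraries. The line and anything else that set the cultures apart cannot be told apart. Ribosomal proteins had medians of 1.39 in N2A and 1.61 in CAD cells, with 2 of 79 called higher and 10 lower in N2A. Under upper-quartile scaling 1 was higher and 29 lower, and under library totals the direction turned, with 8 higher and 2 lower and a median difference of 0.18 in place of -0.17. The largest gap between list medians was that of the mitochondrially encoded mRNAs, 0.38 in N2A against 2.42 in CAD cells, with 11 of 13 called lower in N2A (12 under upper-quartile scaling, 11 under library totals and 5 without the libraries numbered 2). Protrusion RNAs of the APC list had medians of 1.0 in N2A and 1.5 in CAD cells, with 9 of 13 called lower and 1 higher, and 7 lower without the libraries numbered 2. Proteasome genes went the other way, with medians of 1.28 and 0.70 and 32 of 38 called higher in N2A; none of them was called without the libraries numbered 2, although the median difference was 0.60 with and 0.56 without those libraries. Actin regulators (1.11 and 0.61) had 25 of 31 called higher, and initiation factors (1.09 and 0.46) 35 of 54. Under upper-quartile scaling these counts were 14 and 25, and without the libraries numbered 2 no member of either list was called.

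**Figure D5:**
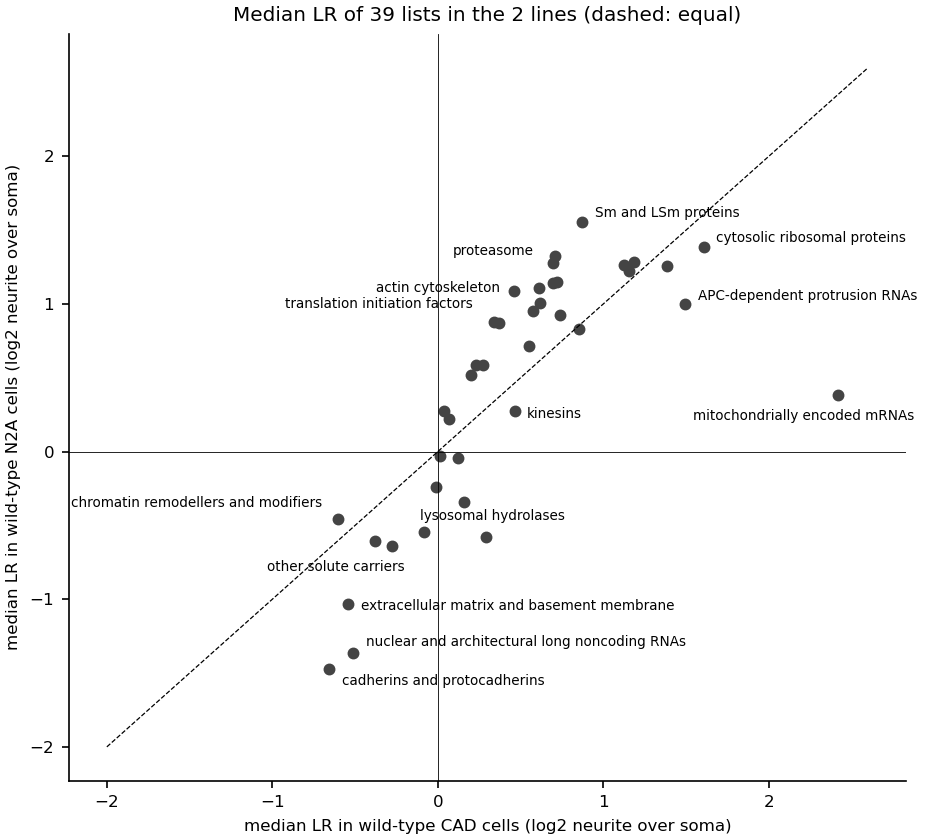
Median LR of the 39 lists in wild-type N2A cells (vertical axis) against wild-type CAD cells (horizontal axis), both as log2 neurite over soma, with a dashed line where they would be equal; 14 lists are named. Mitochondrially encoded mRNAs sit at 0.38 in N2A against 2.42 in CAD cells, the widest distance from the line.

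Of the 8 RNAs with the most negative differences by the rule for named genes, Akap12, Kif5c and Nes had the highest levels; Prkd1 had the most negative difference (-5.67) but stayed under 0.1 CPM in every N2A library. Nes, the intermediate filament nestin, stood at 113, 135 and 110 CPM in N2A neurites and at 87.6, 99.2 and 98.6 CPM in N2A soma, against 4557, 5533 and 4008 CPM in CAD neurites and 78.9, 81.7 and 93.9 CPM in CAD soma. The difference in LR was -5.46 ± 0.18 (adjusted p = 5.7e-11). Akap12, a kinase scaffold, was at 909, 1082 and 889 CPM in N2A neurites and 1027, 1112 and 1033 CPM in N2A soma, while CAD neurites held 30980, 38233 and 26137 CPM (difference -5.29 ± 0.20). Kif5c, a kinesin heavy chain, was at 484, 608 and 536 CPM against 508, 557 and 543 CPM in N2A cells, and at 9249 to 12903 CPM against 374 to 411 CPM in CAD cells (difference -4.74 ± 0.18). The soma levels of the lines were close for these 3 RNAs while the neurite levels were far apart. In N2A cells the fractions overlapped for Akap12 and Kif5c, and for Nes the neurite libraries were slightly above the soma libraries. The LR of Nes in the N2A fit, 0.31 ± 0.14, did not pass the FDR.

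Of the RNAs that the study follows after TDP-43 loss, Diras1, a Ras-like GTPase, was at 51.2, 56.8 and 53.3 CPM in wild-type N2A neurites against 22.7, 26.1 and 27.8 CPM in soma (LR 1.08 ± 0.19, called higher). Ksr2, a scaffold of Ras signalling, was at 7.17, 7.36 and 7.19 CPM against 17.2, 15.8 and 12.7 CPM (LR -1.07 ± 0.24, called lower, though not without the libraries numbered 1). Wasf3 was at 47.3, 55.3 and 55.3 CPM against 54.4, 55.6 and 53.3 CPM (LR -0.05 ± 0.18), with fractions that overlapped. Tardbp, which encodes TDP-43, had an LR of 0.24 ± 0.08 that did not pass the FDR (adjusted p = 0.011) and was -0.058 under upper-quartile scaling and -0.099 under library totals.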

How the data were processed

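Poly(A) RNA of 3 neurite and 3 soma libraries of wild-type N2A cells was analysed. Per the methods and labels, the authors trimmed reads with cutadapt and quantified transcripts with salmon; the deposited tables hold expected counts and TPM per transcript. The expected counts were summed to genes with GENCODE vM21 (GRCm38), rounded, and fitted in edgeR 4.0.16 (quasi-likelihood test, TMM, filterByExpr) with 1 mean for each of 4 groups over 12 N2A libraries, with Benjamini-Hochberg adjustment and an FDR of 0.01. The difference between lines was an interaction over 12 libraries without doxycycline, and its CPM are scaled in that fit. Transcripts were fitted alike. DESeq2 1.42.0 and other scalings, filters and left-out libraries were alternatives. Named genes were the 12 highest and 12 lowest LRs past the FDR with a mean of at least 5 CPM and fractions that did not overlap, 2 on each side per list, 8 on each side for the lines, 6 genes with the widest gap between transcripts, and Tardbp, Diras1, Ksr2, Wasf3 and Cdc42; others are named as chosen later or as the few members of a count. Members and lists were chosen with earlier results of these data known. In data simulated for the gene test (17199 genes), 98 of 100 genes changed by 1 on the log2 scale were recovered, and for transcripts 28 of 99 were. All other genes there were alike in every group, and the changed ones were above 5 CPM and balanced between directions. The simulation therefore tests neither the scaling nor genes below 5 CPM. Each standard error is the size of the estimate divided by the square root of the test's F statistic. The spread behind it was estimated over all libraries of that fit, with information shared between genes. Standard errors and p-values carry counting error and the spread between libraries together. A few genes that the rule names are not reported here.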

Additional observations from a re-analysis of the deposited data

Results flagged for a closer look

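The LR differed between wild-type N2A and CAD cells by the interaction test, at an FDR of 0.01, for each of the 16 RNAs named by the rule for the lines; these were the largest such differences, on the log2 scale, among genes with a mean of at least 5 CPM over both lines. Higher in N2A cells were Sned1 (2.36), Npr1 (1.74), Gm15107 (1.56), Rai14 (1.54), Gm20075 (1.35), Sat1 (1.31), Arhgdib (1.30) and Hist1h1c (1.25). Sat1, which encodes a polyamine acetyltransferase, stood at 85.3, 92.9 and 85.9 CPM in N2A neurites against 20.5, 21.6 and 25.7 CPM in N2A soma, and at 22.3, 23.3 and 24.8 CPM against 15.6, 14.6 and 14.8 CPM in CAD cells. Npr1, a natriuretic peptide receptor, stood at 17.2, 15.0 and 14.1 CPM against 5.54, 5.33 and 6.83 CPM in N2A cells, while in CAD cells its neurites, at 19.9 to 24.0 CPM, lay below its soma, at 25.4 to 31.2 CPM.

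Lower in N2A cells were Prkd1 (-5.67), Nes (-5.46), C130074G19Rik (-5.42), Akap12 (-5.29), Synm (-5.28), Mcf2l (-4.87), Kif5c (-4.74) and AC160336.1 (-4.69). Synm, the intermediate filament protein synemin, stood at 79.9, 82.5 and 76.0 CPM in N2A neurites and 110.7, 127.1 and 110.7 CPM in N2A soma, against 2773, 3544 and 2486 CPM and 101.8, 113.5 and 116.3 CPM in CAD cells. AC160336.1, a lincRNA, was lower in N2A neurites (55.7 to 63.5 CPM) than soma (189.9 to 405.9 CPM) and higher in CAD neurites (367 to 552 CPM) than soma (58.4 to 105.4 CPM).

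Sned1, Rai14, Prkd1, C130074G19Rik and Mcf2l were under 1 CPM in every N2A library, with Prkd1 at 0 in 3 of them, so their N2A LRs rest on few counts. The calls for Sned1, Rai14 and Prkd1 were lost in most of the fits that left out libraries, and those for Gm20075, Gm15107, Arhgdib, Hist1h1c and C130074G19Rik were lost without the libraries numbered 2. Those for Nes, Akap12, Synm, Kif5c, Mcf2l, AC160336.1, Npr1 and Sat1 held in every fit that left out libraries.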

How the results depend on the processing

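Of 3139 values of named genes and transcripts under the alternatives, 3017 kept their direction and side of the threshold, 113 lost their call, 2 gained one and 7 changed sign. The sign changes were those of Tardbp (-0.058 under upper-quartile scaling and -0.099 under library totals), Wasf3 (0.0175 with length-scaled counts, 0.018 with no filter, and -0.0797 to 0.0511 over the fits that left out libraries) and the transcript Epb41-215 (-0.14 under library totals). Of 267 values of the differences between lines 38 lost their call, and of 1396 list medians 407 moved by more than the spread over replicate numbers.

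Leaving out libraries gave 4289 to 5666 genes higher and 2561 to 4415 lower in neurites, 22 to 3054 genes higher and 167 to 979 lower in the difference between lines, and 3438 to 6408 transcripts higher and 767 to 2327 lower. The difference between lines gave 1684 lower with at least 10 counts in every library, 1881 lower at an FDR of 0.05, 1208 higher and 1884 lower under upper-quartile scaling, and 6072 and 420 under library totals. The transcript test gave 9098 lower under upper-quartile scaling, 4758 higher and 11963 lower under library totals, and 11921 lower at an FDR of 0.05. The cause of these moves was not tested. Length-scaled counts were not run for transcripts. On the TPM scale, chosen after seeing the data, the list medians fell with the median of all genes.

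Across genes, deviations of same-numbered neurite and soma libraries of wild-type cells did not correlate (-0.05, 0.02 and 0.03), and not every library correlated best with its own number. The numbers were therefore not taken as pairs. Some RNAs did vary together by number. The libraries numbered 1 were lowest in both fractions for mitochondrially encoded mRNAs and highest for Lars2. These values do not settle whether the numbers mark pairs. With a replicate block, 5884 genes were higher and 4657 lower, the difference between lines gave 3417 and 1430, and transcripts 7010 and 2935. The self-test recovered few transcripts changed by 1 on the log2 scale, so at this depth such changes of single transcripts can be missed.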
